A study of Homo sapiens with 6 samples.

Results

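Kinesins are the microtubule motors whose human genes carry the symbols KIF and KIFC, and they were taken here as every gene whose symbol is KIF or KIFC followed by digits and at most 1 letter A, B or C. This gave 42 of the 28278 genes counted. They were read as 14 mitotic kinesins, which act on the spindle, the chromosomes or the midzone, 17 transport kinesins, which carry cargo along interphase microtubules, and 11 other kinesins with neither role as their main one. RNA was sequenced from HT29 cells, a human colorectal adenocarcinoma line of epithelial form, 48 h after transfection. There were 3 siALDOA libraries, from cells given an siRNA against aldolase A, and 3 siControl libraries, from cells given a scrambled siRNA, with replicates labelled as biological. The labels speak of an siRNA against ALDOA in the singular and give no sequence for it. Its effects on other transcripts cannot be told apart from those of losing ALDOA, and all libraries come from a single cell line.

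A kinesin turns ATP into steps along a microtubule, most members toward the plus end, while the KIFC motors walk to the minus end and the KIF2 group takes the microtubule end apart. Most transport kinesins move vesicles, endosomes, lysosomes and mitochondria toward the plus end, while KIFC2 and KIFC3, counted with them here, are minus-end motors. Mitotic kinesins separate spindle poles, align chromosomes and build the cleavage furrow, and most are transcribed in late cell cycle under the DREAM, MYBL2 and FOXM1 regulators, which act at CHR words near the start site, with NF-Y at CCAAT words beside them.

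The libraries held 27277538 to 33237914 counts, of which 0.157 to 0.173% fell on kinesins. Levels are given as CPM, the count scaled to a common library size, after TMM normalization, which assumes that most genes do not change. ALDOA itself, the glycolytic aldolase, stood at 283, 305 and 280 CPM in the siALDOA libraries and at 592, 637 and 668 in siControl, a log2 fold change of -1.13 (SE 0.060, edgeR adjusted p = 6.95e-11). Colon epithelial markers were present, with none of 8 at 0, and summed to 8379 to 8613 CPM with siALDOA and 9188 to 9653 with siControl. Most of these sums was KRT8 (mean 5093 against 5595 CPM) and KRT18 (1910 against 2320). By log2 fold change 7 of the 8 markers were below 0, and EPCAM was above it (374 against 341 CPM). Summed markers were 16.3 to 17.95 against 12.8 to 14.6 CPM for blood cells, nearly all CD14, with CD3E at 0 in every library, 3.03 to 4.33 against 3.05 to 4.39 for fibroblasts, with COL1A2 at 0, 0.0718 to 0.300 against 0.0962 to 0.197 for endothelium, with KDR at 0, and 1.40 to 1.66 against 1.70 to 2.58 for neurons, with SNAP25 and NEFL at 0. The part of the epithelial and CD14 differences in the results was not tested. Ribosomal RNA took 13.1, 7.71 and 8.11% of counts in siALDOA replicates 1 to 3 and 17.4, 15.3 and 8.15% in siControl. Over raw counts with the ribosomal RNA genes included, the libraries did not sort by group. How they sort without those genes was not examined. By chi-square per degree of freedom, siControl replicate 3 was nearer to siALDOA replicates 2 and 3 (23.6 and 22.9) than to the other controls (90.8 and 58.0), and siALDOA replicate 1 was nearer to siControl replicate 2 (26.2) than to its own group (39.3 and 34.2). Without the ribosomal RNA genes the same 3 kinesins rose and the same 4 fell as with them.

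Transport kinesins were mostly lower and mitotic kinesins mostly slightly higher after ALDOA knockdown. Of 13 transport kinesins with enough counts to test, 4 fell (KIF21B, KIF13A, KIF1C and KIF3B), none rose, and 11 had a log2 fold change below 0 (8 when libraries were scaled by their totals alone, which moved the median of all genes to 0.075). Of 11 tested mitotic kinesins, 1 rose (KIF2C), none fell, and 10 were above 0, so the class is described by small values that mostly missed the test one by one. KIF2A, a depolymerase of spindle poles and near relative of KIF2C, was placed with the other kinesins and lay below 0 (-0.19). The classes were set with earlier results known, and these counts depend on that placement. Of 8 tested other kinesins, KIF12 and KIF26B rose. The 3 kinesins that rose of 32 tested stand beside 4.36% of all 15307 genes tested, and the 4 that fell stand beside 5.29%. The median log2 fold change was -0.16 for transport kinesins, 0.11 for mitotic kinesins and 0.068 for the others, with 0.0016 over all genes tested. With each library left out in turn, the transport median ranged from -0.21 to -0.11 and the mitotic median from 0.067 to 0.19. Library totals alone gave -0.086 and 0.187. In bulk RNA, a change in the number of cells in a cell cycle phase cannot be told apart from a change in RNA per cell.

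**Figure D1:**
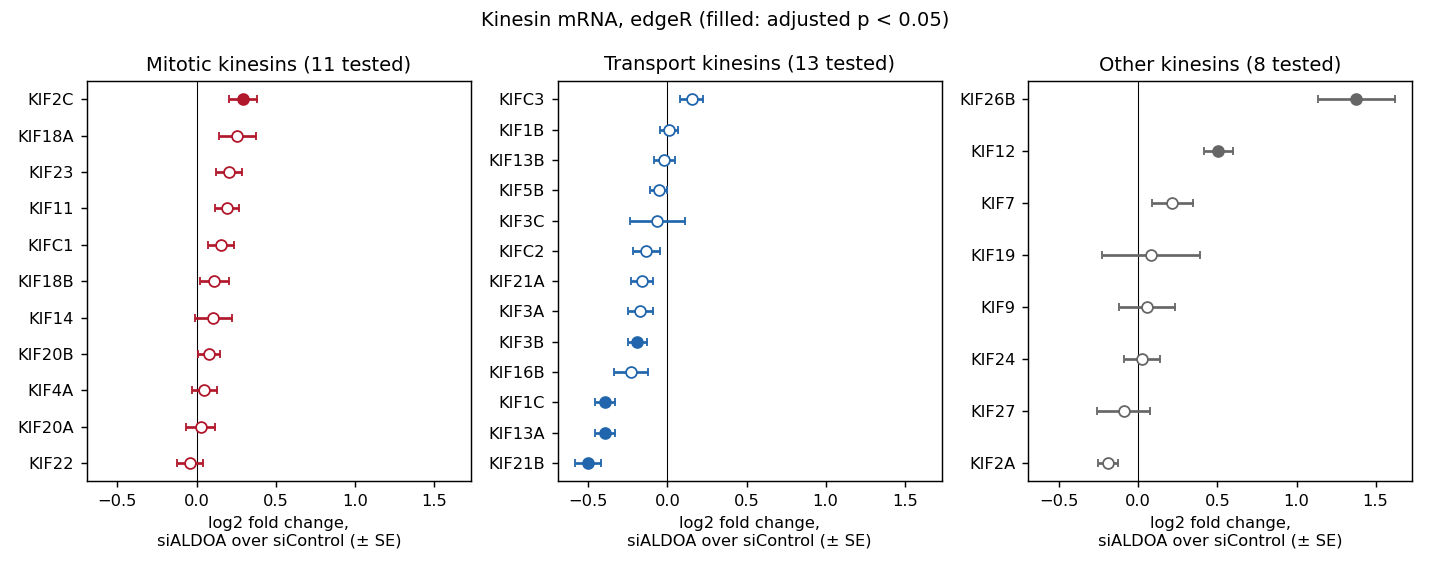
Log2 fold change of each tested kinesin (x axis, siALDOA over siControl, bars ± SE from edgeR, 3 libraries per group), by class, with filled points at adjusted p under 0.05. With TMM scaling 11 of 13 transport kinesins lie left of 0 (8 with library totals alone) and 4 are filled, while 10 of 11 mitotic kinesins lie right of 0 and 1 is filled.

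The promoters of both classes were read next to these values, because mitotic kinesins share a known transcriptional program. RefSeq (GRCh38.p14) windows from 250 bases before to 50 after the start site were matched for 34 of the 42 kinesins. For 8 of these genes the stretch from 100 bases before to 20 after the start is shown, 5′ to 3′ along the gene, with the CHR word (TTTGAA or TTCGAA, on either strand) and the CCAAT word (on either strand) in capitals. The first 5 are mitotic kinesins with both words, KIF2C is the mitotic kinesin that rose, and KIF13A and KIF1C are transport kinesins that fell.
KIF11 (chr10:92593030-92593149, plus strand): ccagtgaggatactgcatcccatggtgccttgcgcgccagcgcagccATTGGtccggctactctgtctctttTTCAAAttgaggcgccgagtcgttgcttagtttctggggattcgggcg
KIF23 (chr15:69414249-69414368, plus strand): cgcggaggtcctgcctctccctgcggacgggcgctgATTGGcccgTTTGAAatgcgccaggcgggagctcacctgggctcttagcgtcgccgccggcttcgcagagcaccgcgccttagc
KIF18A (chr11:28108137-28108256, minus strand): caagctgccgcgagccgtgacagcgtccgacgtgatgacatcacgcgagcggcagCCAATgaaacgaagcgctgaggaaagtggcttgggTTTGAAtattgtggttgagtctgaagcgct
KIF4A (chrX:70290004-70290123, plus strand): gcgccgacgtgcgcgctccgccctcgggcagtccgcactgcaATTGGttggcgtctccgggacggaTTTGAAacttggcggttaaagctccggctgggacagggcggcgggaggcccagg
KIFC1 (chr6:33391723-33391842, plus strand): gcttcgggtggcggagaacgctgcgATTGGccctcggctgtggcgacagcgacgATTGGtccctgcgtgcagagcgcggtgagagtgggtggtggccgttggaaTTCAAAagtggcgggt
KIF2C (chr1:44739737-44739856, plus strand): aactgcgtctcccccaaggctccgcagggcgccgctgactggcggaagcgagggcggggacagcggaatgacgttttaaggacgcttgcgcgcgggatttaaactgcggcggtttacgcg
KIF13A (chr6:17987616-17987735, minus strand): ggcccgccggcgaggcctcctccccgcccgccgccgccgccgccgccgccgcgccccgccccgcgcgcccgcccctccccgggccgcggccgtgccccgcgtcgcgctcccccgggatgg
KIF1C (chr17:4997850-4997969, plus strand): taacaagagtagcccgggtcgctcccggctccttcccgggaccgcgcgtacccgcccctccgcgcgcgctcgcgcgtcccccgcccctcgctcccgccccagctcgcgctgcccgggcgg
In KIF11 the reversed CCAAT word began 53 bases before the start site and the reversed CHR word 28 bases before it. KIF23 had the pair at 64 and 55 bases before the start, KIF18A at 45 and 10, and KIF4A at 58 and 34. KIFC1 had CCAAT words at 75 and 46 bases before the start and the CHR word at base 5 after it. KIF2C, KIF13A and KIF1C had neither word in the whole window, and variants of these words were not searched for.

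Over the matched windows, the CHR word was found in 11 of 14 mitotic kinesins (78.6%), in 1 of 12 transport kinesins (8.33%, KIF5B, at 140 bases before the start) and in 1 of 8 others (KIF24). The same word is in 19.5% of all 27305 genes with a promoter window and in 15.8% of the 11344 that were also tested. The CCAAT word was in 11 of 14 mitotic, 4 of 12 transport and 3 of 8 other kinesins, beside 39.7% of all genes. Both words together were in 10 of 14 mitotic kinesins, 1 of 12 transport and 1 of 8 others, beside 9.02% of all genes. KIF15 had the CHR word alone and KIF20A the CCAAT word alone, while KIF2B and KIF2C had neither. Of the 4 transport kinesins that fell, 3 had a matched window, and KIF3B alone had a word, CCAAT at 78 bases before the start. The word matches are descriptions of sequence, since no factor binding was measured here.

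**Figure D2:**
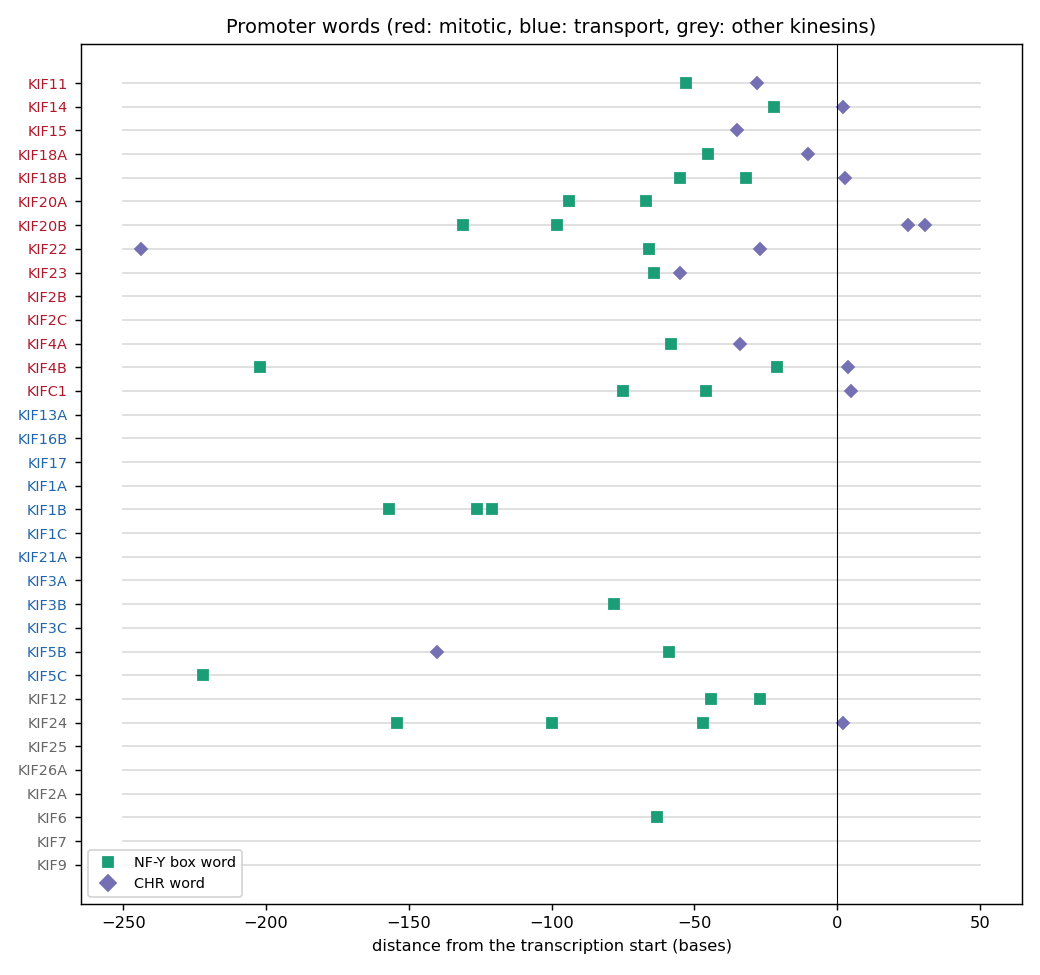
Places of the CHR word (diamonds) and of the CCAAT word, named by its factor NF-Y (squares), against distance from the transcription start in bases (x axis) for the 34 kinesins with a RefSeq window, 1 line per gene. Diamonds lie on 11 of 14 mitotic lines, on 1 of 12 transport lines and on 1 of 8 other lines.

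Among the transport kinesins, KIF21B (chr1:200969390-201023714, hg38), a plus-end motor that also restrains microtubule growth, had 22.4, 25.6 and 26.0 CPM with siALDOA and 35.0, 34.7 and 35.2 with siControl. The SD of the control libraries was 0.256 CPM, and the groups did not overlap. The log2 fold change was -0.50 (SE 0.081, edgeR adjusted p = 3.11e-04). KIF13A (chr6:17759183-17987635), which carries endosomes and mannose-6-phosphate receptors, had 55.0, 55.5 and 52.8 CPM against 72.2, 74.7 and 67.8. Every siALDOA value was below every siControl value, and it fell by 0.40 on the log2 scale (SE 0.064, adjusted p = 3.35e-04). KIF1C (chr17:4997950-5028401), a fast carrier of dense core vesicles, integrins and mRNA, had 110, 115 and 121 CPM against 153, 143 and 159, also without overlap. It fell by 0.40 as well (SE 0.061, adjusted p = 1.87e-04). These 3 calls held in all 14 alternative analyses.

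KIF3B (chr20:32277651-32335011) is a motor subunit of heterotrimeric kinesin-2, the motor of ciliary and endosomal transport. It had 203, 186 and 200 CPM with siALDOA and 219, 219 and 234 with siControl, so the groups did not overlap, and the difference was small at -0.19 on the log2 scale (SE 0.058, adjusted p = 0.0440). Leaving out siALDOA replicate 2 or 3 (adjusted p = 0.198 or 0.0779), or any of siControl replicates 1, 2 and 3 (0.0571, 0.0842 and 0.237), ended its call. It was also lost when scaling by library totals (adjusted p = 0.435) or by the upper quartile (0.0519). KIF3A, the motor subunit that pairs with KIF3B, had 32.7 to 38.3 CPM against 37.5 to 42.5 (log2 fold change -0.17, adjusted p = 0.200). KIF3C, which can pair with KIF3A in place of KIF3B, stood at 6.32 to 6.76 against 5.24 to 9.04 CPM, and the wide control range takes in all of the siALDOA values. KIFAP3, the non-motor subunit, had a log2 fold change of -0.10 (adjusted p = 0.710).

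**Figure D3:**
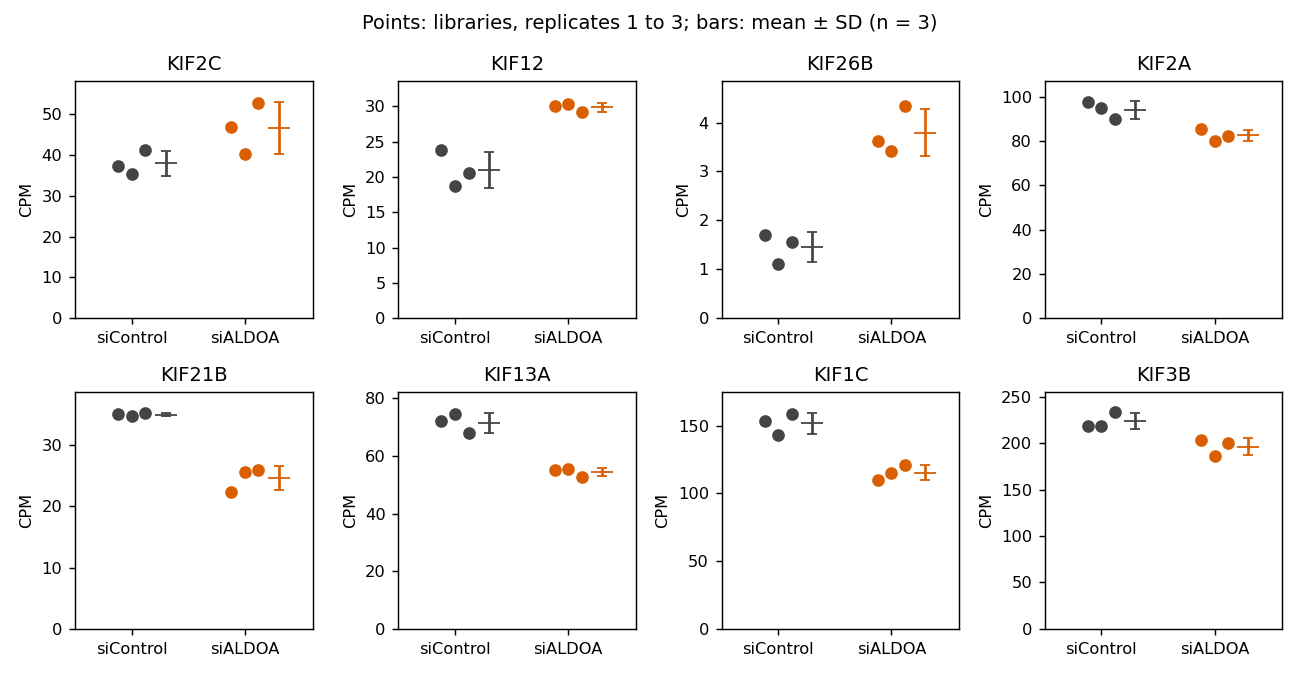
CPM (y axis, from 0) in each library for the 7 kinesins past the edgeR threshold and for KIF2A, with the mean ± SD of 3 libraries per group beside the points. The siALDOA points lie below every siControl point for KIF21B, KIF13A, KIF1C, KIF3B and KIF2A and above them for KIF12 and KIF26B, and the groups overlap for KIF2C.

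Per kb of canonical transcript, the most abundant transport kinesins were KIF5B at 59.0 CPM per kb, KIF3B at 34.4, KIF1C at 16.9 and KIFC3 at 11.7, as means of the 6 libraries. KIF5B, the ubiquitous conventional kinesin heavy chain, made up 19.1% of all kinesin CPM per kb. Its CPM was 360, 331 and 328 with siALDOA and 352, 357 and 349 with siControl, so the groups overlapped and the log2 fold change was -0.06 (SE 0.056, adjusted p = 0.608). KIFC3, a minus-end motor of the apical membrane and of adherens junctions, had 42.0, 40.7 and 41.7 CPM against 40.5, 34.6 and 36.8. It was the only tested transport kinesin whose siALDOA values all lay above the controls, narrowly, with a log2 fold change of 0.15 (adjusted p = 0.224), and 0.10 without siControl replicate 2. KIF1B, a carrier of mitochondria and synaptic vesicle precursors, and KIF13B, a carrier linked to membrane receptors, had log2 fold changes of 0.01 and -0.02.

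Groups did not overlap in the lower direction for 6 of the 13 tested transport kinesins, where 14.5% of all tested genes did so, and in the higher direction for 1, where 13.1% did. Beside the 4 that fell, these were KIF16B, an early endosome motor, at 13.0 to 14.6 against 14.9 to 17.4 CPM (log2 fold change -0.23, adjusted p = 0.185), and KIF21A, the close relative of KIF21B, at 46.1 to 48.6 against 49.2 to 55.8 CPM (-0.16, adjusted p = 0.159). KIFC2 had a log2 fold change of -0.13 (adjusted p = 0.374).

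Among the mitotic kinesins, KIF2C (chr1:44739818-44767767), the centromere-bound depolymerase MCAK that corrects wrong chromosome attachments, had 46.7, 40.2 and 52.8 CPM with siALDOA and 37.3, 35.3 and 41.3 with siControl. The second siALDOA library lay below the third control, so the groups overlapped. The log2 fold change was 0.29 (SE 0.089, adjusted p = 0.0417). Limma-voom did not call it (adjusted p = 0.0601), and removing siALDOA replicate 1 (0.0682) or 3 (0.227), or siControl replicate 1 (0.0981) or 2 (0.195), ended the call. Without siALDOA replicate 3 the log2 fold change was 0.19.

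KIF11, or Eg5, the motor that pushes spindle poles apart, had 43.9, 44.7 and 45.2 CPM against 38.9, 35.7 and 42.6. The groups did not overlap, but the log2 fold change of 0.19 missed the threshold (SE 0.075, adjusted p = 0.119). KIF20B, a midzone motor, was the only other tested mitotic kinesin without overlap, at 35.3 to 37.7 CPM against 34.8 in each control, and its log2 fold change was 0.08 (adjusted p = 0.564). Thus 2 of 11 mitotic kinesins were non-overlapping and higher, where 13.1% of all tested genes were, and 0 of 11 were lower, where 14.5% were. These are small counts, and their difference from those shares was not tested. KIF2A, non-overlapping and lower, is not among the 11.

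KIF23, the motor part of centralspindlin that drives cytokinesis, had 48.4, 44.6 and 57.1 CPM with siALDOA and 42.7, 42.8 and 44.7 with siControl (log2 fold change 0.20, adjusted p = 0.121). The third siALDOA library was the highest and the second lay within the controls, and without the third the log2 fold change was 0.10. KIF18A, which damps chromosome movement at metaphase, had a log2 fold change of 0.26, next to KIF2C in the class, at 13.1 to 16.0 against 10.9 to 13.6 CPM (adjusted p = 0.180). KIFC1, the minus-end motor that clusters centrosomes, was the most abundant mitotic kinesin per length, at 16.6 CPM per kb. It had 39.1, 39.1 and 47.7 CPM against 36.7, 37.0 and 39.2 (log2 fold change 0.16, adjusted p = 0.262).

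KIF22, a chromosome arm motor of 15.0 CPM per kb, was the one tested mitotic kinesin below 0, at 28.2, 30.8 and 33.1 CPM against 29.8, 32.1 and 32.8 (log2 fold change -0.04, adjusted p = 0.823). KIF20A, the midzone motor that brings Aurora B to the furrow, and KIF4A, a chromosome motor that sets midzone length, were at 0.03 and 0.05, and KIF14 and KIF18B at 0.10 and 0.11. The third siALDOA library had the highest siALDOA value for 9 of the 11 tested mitotic kinesins, among them KIF2C, KIF23, KIFC1 and KIF18A, and the third siControl library had the highest control value for 8 of the 11. Without siALDOA replicate 3 the class median was 0.067 and 8 of 11 were above 0. Without siALDOA replicate 2 the median was 0.19 and 10 of 11 were above 0.

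Of the other kinesins, KIF12 (chr9:114086126-114099292), a motor of kidney, liver and gut epithelia known from cholestatic liver disease, had 30.0, 30.4 and 29.1 CPM with siALDOA and 23.8, 18.7 and 20.5 with siControl. The groups lay well apart, and it rose by 0.51 on the log2 scale (SE 0.092, edgeR adjusted p = 0.00102). At 11.6 CPM per kb it was the most abundant of these 11 genes. KIF26B (chr1:245154985-245709432), an unusual kinesin that binds microtubules without moving on them and acts in cell polarity, had 3.63, 3.43 and 4.33 CPM against 1.70, 1.11 and 1.55. It showed the largest fold of the tested kinesins, 2.60-fold (log2 fold change 1.38, SE 0.24, adjusted p = 7.78e-04), from the low base of 34 to 53 counts per siControl library against 101 to 123 with siALDOA. Both calls held in all 14 alternatives.

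KIF2A (chr5:62306162-62391025), a depolymerase of spindle poles and of interphase microtubules and the near relative of KIF2C, had 85.3, 80.1 and 82.3 CPM with siALDOA and 97.8, 95.03 and 89.8 with siControl. The groups did not overlap, and the log2 fold change of -0.19 came close to the threshold without passing it (SE 0.061, unadjusted p = 0.00538, adjusted p = 0.0537). It passed with DESeq2 (adjusted p = 0.0312) and in 4 further alternatives, and did not pass in the other 9, among them scaling by library totals (log2 fold change -0.12, adjusted p = 0.425) and 5 of 6 fits with a library left out. KIF7, a regulator of Hedgehog signalling at the cilium tip, had 16.5, 12.4 and 11.1 CPM against 11.2, 11.8 and 11.3 (log2 fold change 0.22, adjusted p = 0.341), with its difference carried by the first siALDOA library. KIF27, a relative of KIF7, had -0.09, KIF24, a centriole depolymerase, had 0.03, and KIF9 and KIF19, which act in cilia, had 0.06 and 0.08, all overlapping.

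The balance between classes was then summed per library, with each gene per kb of transcript so that long transcripts did not dominate. Mitotic kinesins made up 32.8, 33.3 and 36.6% of all kinesin CPM per kb with siALDOA and 30.2, 30.4 and 31.8% with siControl, without overlap. Summed transport kinesins were lower, 170 ± 4.44 against 187 ± 2.18 CPM per kb (SD, n = 3 each), and did not overlap. Summed mitotic kinesins, 105 ± 8.77 against 95.8 ± 3.55, did overlap. On a log2 scale the mitotic to transport ratio was -0.787, -0.749 and -0.546 with siALDOA and -0.996, -0.992 and -0.903 with siControl, a mean difference of 0.27. Without KIF5B, the largest single term, the mean difference was 0.31. No test was run on these sums.

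**Figure D4:**
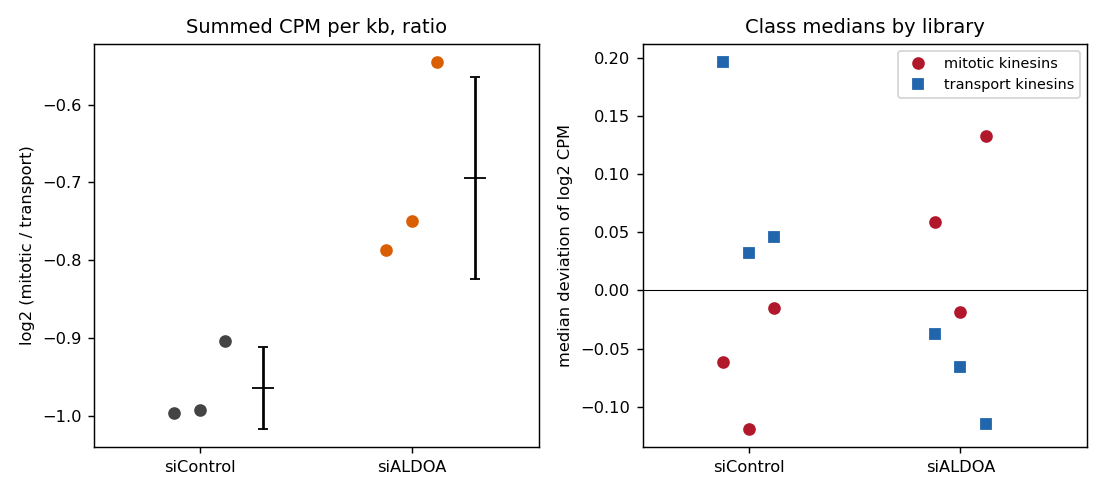
Left, log2 of summed mitotic over summed transport CPM per kb in each library (points), with the mean ± SD of 3 libraries. Right, for each library the median over tested members of each class of the log2 CPM deviation from the gene's mean over 6 libraries. The 3 siALDOA ratios of -0.787 to -0.546 lie above the 3 siControl ratios of -0.996 to -0.903, and the transport medians are above 0 in the controls and below 0 with siALDOA.

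Close relatives within the family differed in their values, and the log2 ratio of CPM within a library compares them free of scaling. For KIF13A over KIF13B the ratio was 0.05, 0.10 and 0.05 with siALDOA and 0.47, 0.55 and 0.31 with siControl. For KIF1B over KIF1C it was -0.02, -0.11 and -0.16 against -0.55, -0.38 and -0.56, and for KIF21A over KIF21B it was 1.12, 0.88 and 0.83 against 0.61, 0.69 and 0.48. None of these 3 ratios overlapped between groups, with the lowered member being KIF13A, KIF1C and KIF21B in turn. The pair of depolymerases went apart the most, KIF2A over KIF2C at 0.87, 1.00 and 0.64 against 1.39, 1.43 and 1.12. The other 5 of the 9 ratios computed overlapped, among them KIF3A over KIF3B, whose means differed by 0.02, and KIF20A over KIF20B. The 9 pairs are all those of tested kinesins that share a number and differ in the final letter. They were formed with earlier results known, and the ratio differences were not tested.

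The proteins that kinesins work with were read from lists of their own. Of 14 cargo adaptors and light chains, all tested, 2 fell, none rose and 10 were below 0, with a median of -0.092. Over all 15307 genes tested, 5.29% fell and 7612 were below 0. KLC2, a light chain of conventional kinesin, had 28.02, 33.1 and 34.4 CPM against 43.4, 39.3 and 41.3 (log2 fold change -0.38, SE 0.083, adjusted p = 0.00509). TRAK1, the mitochondrial adaptor, had 91.9, 103 and 99.7 CPM against 113, 110 and 116 (-0.20, SE 0.061, adjusted p = 0.0428). Neither overlapped between groups. With scaling by library totals the calls of KLC2 (0.0557) and TRAK1 (0.415) were lost, and TRAK1 also lost it with the upper quartile (0.0508), on removing siALDOA replicate 1 (0.0949) or 3 (0.0830), and on removing siControl replicate 1 (0.0854), 2 (0.0866) or 3 (0.181). KLC1 and KLC4, which share the role of KLC2, had log2 fold changes of -0.0014 and 0.07.

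Of 14 mitotic partners, 1 rose and none fell, with a median of 0.047, where 4.36% of all tested genes rose. The one was RACGAP1, which forms centralspindlin with KIF23, at 46.6, 40.9 and 49.2 CPM against 37.7, 32.9 and 35.9, without overlap (log2 fold change 0.36, SE 0.081, adjusted p = 0.00594). Its call was lost without siControl replicate 2 (adjusted p = 0.0547). Other partners that bind a kinesin directly missed the threshold: TPX2, which loads KIF11 on the spindle, had -0.14 (adjusted p = 0.213), PRC1, the midzone partner of KIF4A, 0.05, CIT, the furrow kinase tied to KIF14 and KIF23, 0.05, and AURKB, a cargo of KIF20A, 0.27 (adjusted p = 0.130). CENPE, a mitotic kinesin whose symbol falls outside the rule, had -0.05 (adjusted p = 0.803), and MKI67, a general marker of cycling cells, 0.07 (adjusted p = 0.548).

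Of 19 subunits of dynein and dynactin, the motor that runs the opposite way, 18 were tested, 1 fell and none rose, with a median of -0.018. This is a share close to the 5.29% of all tested genes that fell. It was DCTN1, the dynactin subunit p150, at 81.1, 84.4 and 80.3 CPM against 99.6, 100.2 and 102 (log2 fold change -0.29, SE 0.058, adjusted p = 0.00225), without overlap. It lost its call when scaled by library totals (0.0971). Of 12 DREAM, MYBL2 and FOXM1 regulators, RBL2, the p130 pocket protein of DREAM, rose, at 107, 91.8 and 86.2 CPM against 85.1, 75.9 and 74.4 (0.27, SE 0.076, adjusted p = 0.0257), and none fell. This 1 call also stands beside the 4.36% of all genes that rose. That call did not survive the removal of siALDOA replicate 1 (0.0999) or 2 (0.0505), nor of siControl replicate 2 (0.123) or 3 (0.141). FOXM1 and MYBL2, the activators of late cell cycle genes, had 0.16 (adjusted p = 0.162) and 0.12 (adjusted p = 0.380).

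**Figure D5:**
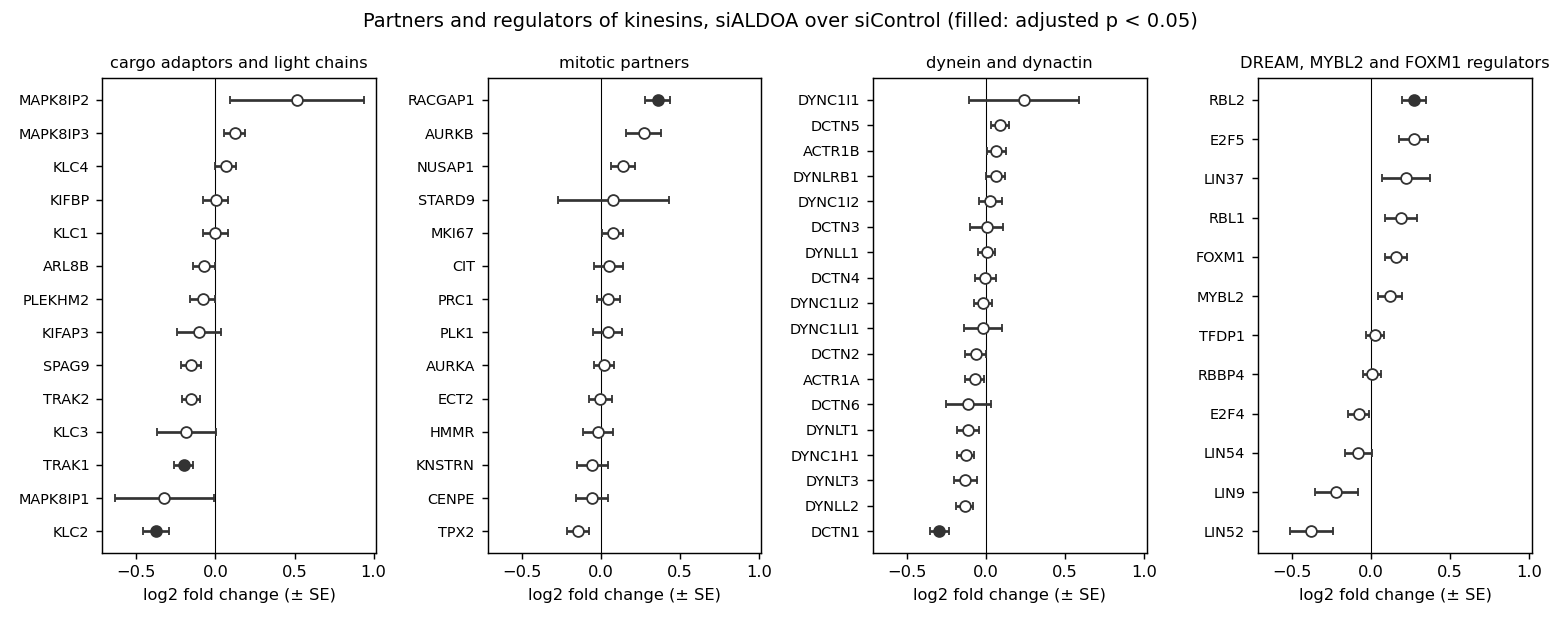
Log2 fold change (x axis, siALDOA over siControl, bars ± SE from edgeR) of tested adaptors and light chains, mitotic partners, dynein and dynactin subunits and DREAM, MYBL2 and FOXM1 regulators, with filled points at adjusted p under 0.05. Filled points are KLC2, TRAK1 and DCTN1 to the left of 0 and RACGAP1 and RBL2 to the right.

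The remaining 10 of the 42 kinesins were below the count filter. The neuronal transport kinesins KIF1A, KIF5A and KIF17 had at most 3 counts in any library and KIF5C none. KIF6, KIF25 and KIF26A had at most 5. KIF2B, a testis depolymerase, and KIF15, a spindle motor that can stand in for KIF11, were listed at 0 in all 6 libraries, where 3 counts correspond to 0.0911 to 0.108 CPM. For KIF15 the neighbouring gene KIAA1143 was listed at 0 as well, so these zeros are given as listed and no level is drawn from them. KIF4B, a near-identical copy of KIF4A without introns, had 0 to 7 counts, and how reads shared by the copies were counted is not given in the sources used here, so both are uncertain. Without them the median of the mitotic class was 0.13. Some kinesins overlap genes on the other strand, and the strand setting of the counting is not stated either. KIF1C overlaps KIF1C-AS1, at 2.096 against 1.86 CPM, and KIF2A overlaps DIMT1, whose log2 fold change was -0.21 (adjusted p = 0.0953). KIF20A, KIF4A, KIF7, KIF9, KIF24, KIF26B and KIFC2 are among the others with such a partner.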

How the data were processed

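HT29 cells were profiled by RNA-Seq in 3 siALDOA and 3 siControl libraries at 48 h. Alignment by the authors was to hg38 (TopHat2) and gfold gave the counts, and each of the deposited files lists raw counts by gene symbol for 1 library. Which annotation was used, whether counting was stranded and what became of multi-mapping reads are not given in the sources used here. Counts were tested in R 4.3.3 with edgeR 4.0.16 (filterByExpr, TMM, quasi-likelihood F-test) over all 15307 genes that passed the filter, with Benjamini-Hochberg adjustment and a threshold of 0.05. The SE was taken from the F statistic as the size of the log2 fold change over its root. CPM used TMM-scaled library sizes, and CPM per kb the Ensembl canonical transcript of GENCODE 44. The depth is such that KIF26B, at 1.11 to 4.33 CPM, rests on 34 to 123 counts. The replicates are labelled biological, but how separate the cultures were is not stated, so p-values measure the spread between these libraries.

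Values per library are given for kinesins at adjusted p under 0.05 or unadjusted p under 0.01, and for the 4 most abundant mitotic and transport kinesins per length. The highest and lowest members of each class, called partners and some direct binding partners are also named. The members, classes and lists were chosen with earlier results of these data known, and KIF20B, KIF16B, KIF21A and KIF2A are named as non-overlapping members. Alternatives were DESeq2 1.42.0, limma-voom (limma 3.58.1), 2 other scalings, 2 other filters, removal of ribosomal RNA genes, a replicate block and leaving out each library. No 2 libraries of a group agreed within sampling noise (chi-square per degree of freedom 5.05 to 90.8), so none was merged. The chi-square was taken on raw counts with ribosomal RNA included. A gene of the adaptor list is not reported here and was left out of its counts.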

Additional observations from a re-analysis of the deposited data

How the results depend on the processing

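In the 14 alternatives, 2 to 3 kinesins rose and 3 to 5 fell, and KIF12, KIF26B, KIF13A, KIF1C and KIF21B kept their calls in every one, as did ALDOA (log2 fold change -1.17 to -1.06). The median of the mitotic class ranged from 0.067 to 0.19 and that of the transport class from -0.21 to -0.11 when libraries were left out in turn. Scaling by library totals alone gave medians of 0.187 and -0.0858, with that of all genes at 0.0753. It also turned the split of all genes from 668 higher and 810 lower to 896 and 279. Leaving out siControl replicate 2 or 3 reduced all calls to 359 higher and 490 lower, or 363 and 471. The other fits with a library left out gave 473 to 644 higher and 567 to 790 lower. KIF2A passed with DESeq2 (adjusted p = 0.0312), with no filter (0.0486), with at least 10 counts in every library (0.0486), with the replicate block (0.0225) and without siALDOA replicate 1 (0.0294). Deviations of same-numbered libraries correlated at 0.026 to 0.035 over all tested genes. Genes of low count weigh as much as others there, so this does not settle whether the replicate numbers pair the libraries. The block fit called 987 genes higher and 1175 lower, among them 3 and 5 kinesins, and the class medians under the block were 0.111 and -0.160. The cause of these shifts was not tested. KIF26B and the other kinesins of low count rest on few counts, and KIF19, at 35 to 47 counts per library, had an SE of 0.31.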
